A study of Rattus norvegicus with 22 samples.

Results

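The effect of tamoxifen (TMX) in injured spinal cord was read from 11 of the 22 arrays of a rat contusion study, 6 of injured rats given TMX (SCI/TMX+) and 5 of injured rats given vehicle alone (SCI/TMX-), chosen by the treatment in their labels. All were adult male Long-Evans rats whose cord was struck at thoracic level 9 by a 10 g rod dropped from 50 mm after laminectomy. A single intraperitoneal dose of 5 mg/kg TMX, or ethyl alcohol in corn oil as vehicle, followed 30 min later, and a 20 mm segment centred on the lesion was taken at 24 h, with the dura removed. The other 11 arrays, from sham rats with soft tissue surgery only (Sham/TMX-, n = 5, and Sham/TMX+, n = 6), entered the fit for the spread between animals. Each array measured bulk RNA of 1 rat on 23188 transcripts, so that fewer cells of a type and less RNA per cell cannot be told apart.

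Tamoxifen is a selective estrogen receptor modulator that competes with estradiol for the receptors ERα and ERβ, encoded by *Esr1* and *Esr2*. It also binds the microsomal antiestrogen binding site, which is formed by enzymes of late cholesterol synthesis, among them the sterol isomerase encoded by *Ebp*. In contused cord the first day is a time of bleeding, cell death, glial reaction and entry of neutrophils, with blood monocytes following, and the agent was given here at the start of that sequence.

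The arrays held the markers of the tissue. Over the 11 injured arrays, *Mbp* of myelin had log2 signals between 12.30 and 12.54 and *Gfap* of astrocytes between 11.25 and 11.65. The skeletal muscle marker *Acta1*, between 4.54 and 5.22, lay below the array medians of 5.41 to 5.47. Among the injured arrays, 2 of SCI/TMX- stood apart on the first principal component (27.5% of the variance). It placed animal 15c at 43.3 and animal 13c at 23.9, whereas the other 9 arrays lay between -23.6 and 3.31. The lowest of these 9 was animal 11b of SCI/TMX+. On the third component (10.7% of the variance) 11b stood apart, at 29.1 against -11.9 to 9.97 in the others. Array weights in limma were lowest in 15c (0.29), 13c (0.46) and 11b (0.56). Animal 11b was left out only in the fits with 1 array left out. Animals 13c and 15c had the lowest mean signal of the 11 rats in several lists. Among them were red blood cells (1.01 and 0.97 above Sham/TMX-, others 1.23 to 1.70) and reactive astrocytes (1.34 and 1.23, others 1.53 to 1.82). Immediate early genes (0.84 and 0.66, others 1.05 to 1.24) and neurons and synapses (-0.70 and -0.59, others -0.57 to -0.33) were also among them. The part of these differences in the results was not tested. Results are therefore given with all arrays and, where it matters, without animals 13c and 15c. These 2 were picked from the same values, and their removal leaves animals 16c, 17c and 18c alone in SCI/TMX-. A p-value from that fit describes how far a result depends on them and is not a further test.

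**Figure D1:**
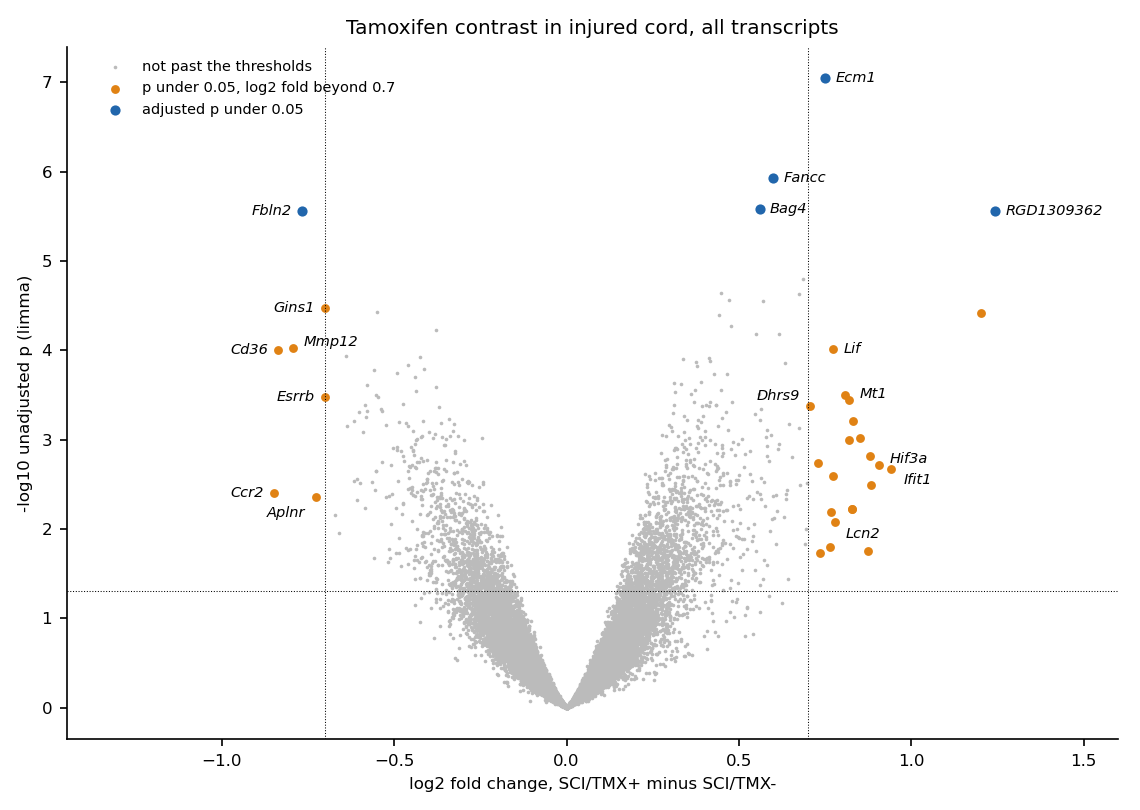
Log2 fold change between SCI/TMX+ and SCI/TMX- (x axis) against -log10 of the unadjusted limma p (y axis) for 23188 transcripts, with dotted lines at the thresholds. Of the 30 transcripts past both thresholds 23 lie to the right, and the 5 transcripts at an adjusted p under 0.05 are *Ecm1*, *Fancc*, *Bag4*, *RGD1309362* and *Fbln2*.

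The study's methods set 2 thresholds for TMX, a log2 fold change beyond 0.7 in size and p under 0.05 before adjustment. By these, 30 of 23188 transcripts (0.129%) differed between SCI/TMX+ and SCI/TMX-. Of these, 23 were higher and 7 lower with TMX, and 29 carry a gene name, for 27 different genes. Their folds lay between 1.63 and 2.37, and the median log2 fold change over all transcripts was -0.01. Only 4 of the 30 had groups that did not overlap (*Ecm1* higher, and *Fbln2*, *Gins1* and *Esrrb* lower), while over all transcripts 0.418% were higher and 0.367% lower without overlap. After adjustment over all transcripts (Benjamini-Hochberg), 5 (0.0216%) had a p under 0.05 in limma. With only the 11 injured arrays in the fit, none of the 5 did: 0 transcripts reached an adjusted p under 0.05 and 1685 an unadjusted p under 0.05. With the transcripts of low signal left out, 3 of the 5 were among those at an adjusted p under 0.05.

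*Ecm1* encodes a secreted glycoprotein of the extracellular matrix. Its log2 signal was 4.93, 4.62, 4.90, 4.90 and 4.98 in the 5 SCI/TMX- rats and lay between 5.49 and 6.01 (median 5.54) in the 6 SCI/TMX+ rats. The lowest treated rat was thus above every untreated one, and the log2 fold change was 0.75 (standard error 0.10, limma adjusted p = 0.0021). *Ecm1* was the only one of the 5 to keep an adjusted p under 0.05 without animals 13c and 15c (log2 fold change 0.69, limma adjusted p = 0.0281). SCI/TMX- minus Sham/TMX-, a contrast that shares the SCI/TMX- arrays, gave 0.59. Without animal 10b or without 15c the log2 fold change of *Ecm1* was under the minimum, 0.67 at the lowest. Its untreated values lay below the array medians of 5.41 to 5.47 and its treated values above them.

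*Fbln2* encodes fibulin-2, a protein of elastic fibres and basement membranes. It had 8.30, 8.25, 8.26, 8.07 and 7.97 in SCI/TMX- and between 6.86 and 7.78 (median 7.47) in SCI/TMX+, with no overlap. TMX minus vehicle was -0.77 (standard error 0.13, limma adjusted p = 0.0129), and -0.66 without animal 11b, while injury in untreated rats gave 2.03. In sham rats TMX gave 0.16, and the interaction had an unadjusted p of 2.51e-05 but an adjusted p of 0.292 in limma.

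*Fancc*, of the Fanconi anemia complex for repair of DNA crosslinks, had 4.08, 4.14, 4.27, 4.35 and 4.02 in SCI/TMX- against 4.58 to 5.05 (median 4.73) in SCI/TMX+. *Bag4*, a cochaperone that restrains death receptors of the tumor necrosis factor family, had 6.83, 7.04, 7.41, 7.01 and 7.04 against 7.51 to 7.79 (median 7.61). The groups overlapped for neither gene, and all values of *Fancc* lay below the array medians. Their log2 fold changes were 0.60 (standard error 0.09) for *Fancc* and 0.56 (standard error 0.09) for *Bag4*, each with a limma adjusted p of 0.0129 and each short of the minimum of 0.7. In sham rats both were also higher with TMX, *Fancc* by 0.27 and *Bag4* by 0.21, at unadjusted p of 0.00926 and 0.0304 in limma.

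*RGD1309362*, annotated as similar to an interferon-inducible GTPase, had the highest fold of the contrast. It had 6.52, 6.39, 7.13, 7.86 and 7.18 in SCI/TMX- and between 7.78 and 8.86 (median 8.25) in SCI/TMX+, so that of the untreated rats animal 17c alone lay within the treated range. The log2 fold change was 1.24 (standard error 0.21, limma adjusted p = 0.0129), and 0.87 without animals 13c and 15c (limma adjusted p = 0.142). A second transcript of the gene gave 1.20 (limma adjusted p = 0.0673).

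**Figure D2:**
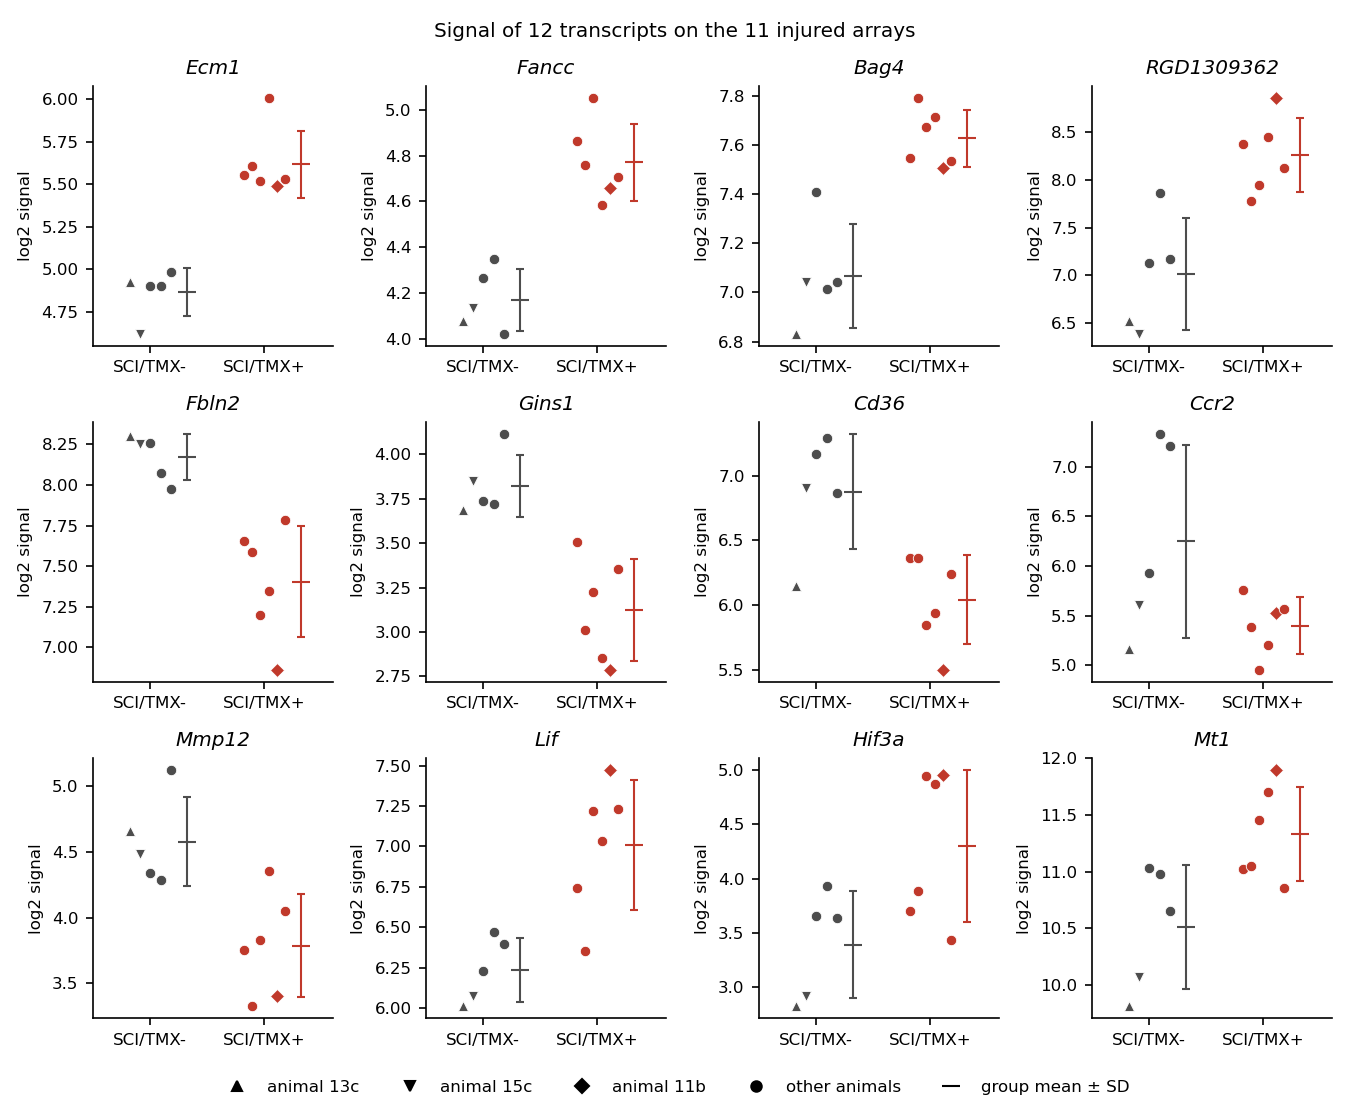
Log2 signal (y axis) of 12 transcripts in the 5 SCI/TMX- rats (grey) and the 6 SCI/TMX+ rats (red), 1 point per rat, with group means and SD. *Ecm1*, *Fancc*, *Bag4*, *Fbln2* and *Gins1* show no overlap, and animals 13c and 15c are the lowest untreated rats in *RGD1309362*, *Ccr2*, *Lif*, *Hif3a* and *Mt1*.

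Further matrix genes were split in direction. *Mmp12*, macrophage metalloelastase, had 4.66, 4.49, 4.34, 4.29 and 5.12 in SCI/TMX- and between 3.32 and 4.36 (median 3.79) in SCI/TMX+, and overlapped in 1 treated rat. All these values lay below the array medians. The difference was -0.79 (standard error 0.17, limma adjusted p = 0.109), -0.80 without animals 13c and 15c and -0.66 without 18c, beside 1.47 for injury in untreated rats. *Lrrc15*, a membrane protein of matrix-producing fibroblasts, was at 3.20 and 3.07 in animals 13c and 15c, and between 4.46 and 5.09 in the other 3 untreated rats. The treated rats lay between 4.40 and 5.49. The difference of 0.88 (limma adjusted p = 0.229) became 0.21 without animals 13c and 15c (unadjusted p = 0.271 in limma). *Postn*, for the matricellular protein periostin, was lower, at -0.64 (unadjusted p = 0.000707 in limma), just short of the minimum fold. Over the 42 measured genes of the extracellular matrix list, 4 were higher and 5 lower at an unadjusted p under 0.05, where over all transcripts 5.94% were higher and 4.51% lower at that p, and the median log2 fold change of the list was 0.00.

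The 2 myeloid receptors past the thresholds were both lower with TMX. *Ccr2*, the receptor by which blood monocytes follow the chemokine of *Ccl2*, had 5.16, 5.61, 5.93, 7.33 and 7.21 in SCI/TMX- and between 4.95 and 5.76 (median 5.46) in SCI/TMX+. The untreated rats fell into low and high values: animals 17c and 18c were far above every treated rat, 16c just above, and 13c and 15c among them. The log2 fold change was -0.85 (standard error 0.27, limma adjusted p = 0.246) with all arrays and -1.42 without animals 13c and 15c (limma adjusted p = 0.0238). For *Ccr2* the SD was 0.97 in SCI/TMX- and 0.29 in SCI/TMX+, against 0.23 in Sham/TMX- and 0.21 in Sham/TMX+. The sham spread enters the standard error. Animals 13c and 15c were the lowest untreated rats for *Ccr2*, so leaving them out widens the difference by itself. Without 17c or without 18c *Ccr2* was no longer past the thresholds, and the smallest log2 fold change was -0.58.

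*Cd36*, a scavenger receptor for oxidized lipids, had 6.14, 6.91, 7.17, 7.29 and 6.86 in SCI/TMX- and between 5.50 and 6.36 (median 6.09) in SCI/TMX+. Only animal 13c of the untreated rats lay within the treated range. The contrast gave -0.84 (standard error 0.18, limma adjusted p = 0.109), and -1.07 without animals 13c and 15c (limma adjusted p = 0.0331). *Clec4e*, the C-type lectin Mincle of activated macrophages, had a log2 fold change of -0.53 (limma adjusted p = 0.16), and -0.76 without these 2 animals (limma adjusted p = 0.0331). Of the untreated rats, 13c was the lowest in *Cd36*, and 13c and 15c were the lowest in *Clec4e*.

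Of the 30 measured genes in the list of monocytes and macrophages, 6 were lower and 2 higher at an unadjusted p under 0.05. Over all transcripts 4.51% were lower and 5.94% higher, and the median of the list was -0.12. Beside *Cd36*, *Clec4e* and *Ccr2*, the lower members were *Itgb2* (-0.31), the leukocyte β2 integrin, *Arg1* (-0.39), arginase, and *Vcan* (-0.30), versican. The 2 higher ones were *Cd163*, a hemoglobin scavenger receptor that glucocorticoids also induce, and *Plac8*. Without animals 13c and 15c, 9 members were lower and none higher, the median was -0.27, and *Gpnmb*, *Ccr1* and *Lyz2* joined the lower ones with -0.56, -0.57 and -0.41. Over all transcripts 5.41% were lower and 4.23% higher at that p in the same fit. The mean log2 signal of the list above the Sham/TMX- mean lay between 1.35 and 1.53 in SCI/TMX+, between 1.67 and 1.84 in the untreated animals 16c, 17c and 18c, and at 1.31 and 1.36 in 13c and 15c. The chemokine *Ccl2* itself had -0.07. With all arrays, the list of resident microglia had 0 of 14 genes higher and 1 lower, and the neutrophil list had 2 of 20 higher and 2 lower. Over all transcripts the shares at an unadjusted p under 0.05 were 5.94% higher and 4.51% lower. Of the 20 neutrophil genes, 9 had a mean signal near background, which limits what their counts can show. The macrophage products *Il1b* (-0.20), *Nos2* (-0.21) and *Tnf* (0.04) had unadjusted p of 0.421, 0.361 and 0.802 in limma.

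**Figure D3:**
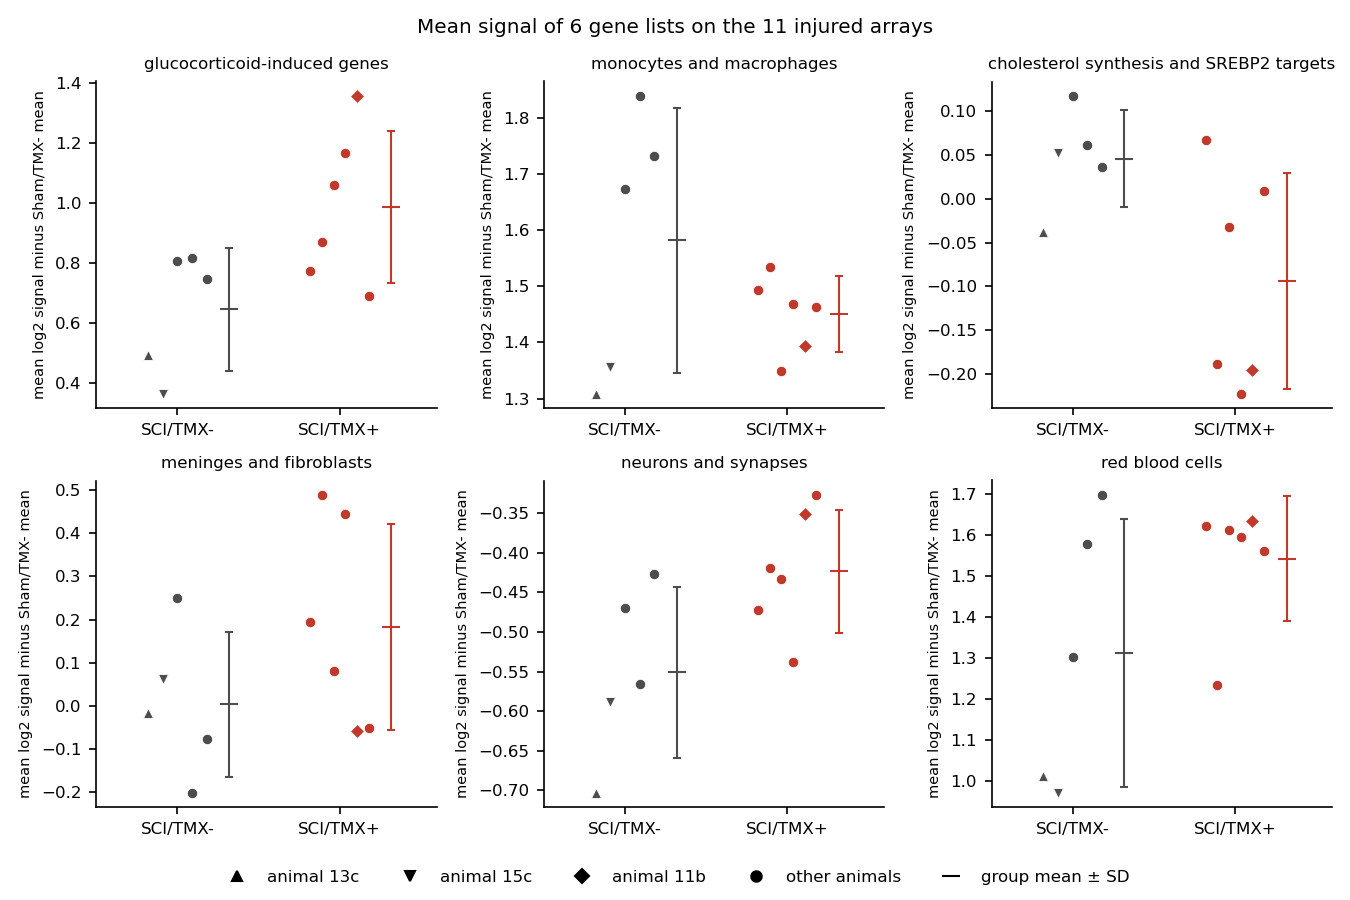
Mean log2 signal of the genes of 6 lists, relative to the Sham/TMX- mean (y axis), in each SCI/TMX- rat (grey) and SCI/TMX+ rat (red), with group means and SD. In the list of monocytes and macrophages the untreated rats other than 13c and 15c, at 1.67 to 1.84, lie above all treated rats, at 1.35 to 1.53.

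Glucocorticoid-induced genes, a set that adrenal steroids raise in many tissues through the receptor encoded by *Nr3c1*, held the largest share of higher members among the 55 lists. Of 31 measured genes, 15 were higher and 2 lower at an unadjusted p under 0.05 (5.94% and 4.51% of all transcripts), 28 had a positive log2 fold change and the median was 0.32. The lists were chosen with earlier results of these data known, so the rank among them is a description and not a test. *Hif3a*, a hypoxia-inducible factor subunit, had 2.83, 2.92, 3.65, 3.93 and 3.64 in SCI/TMX- and between 3.44 and 4.95 (median 4.38) in SCI/TMX+, where animals 9b, 10b and 11b were the high ones. The log2 fold change of *Hif3a* was 0.91 (standard error 0.26, limma adjusted p = 0.211), and 0.56 without animals 13c and 15c (unadjusted p = 0.0656 in limma).

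*Mt1*, a metallothionein that binds zinc and copper, had 9.81, 10.07, 11.03, 10.98 and 10.65 in SCI/TMX- and between 10.86 and 11.90 (median 11.25) in SCI/TMX+. TMX minus vehicle was 0.82 (standard error 0.20, limma adjusted p = 0.154), 0.65 without animal 13c, 0.44 without 13c and 15c, and 0.57 for TMX in sham rats. A further transcript, which the study's tables name Mt1a, a RefSeq synonym of *Mt1*, had 0.81 and is the one that stands for the gene in the lists. The array design places this transcript on another chromosome than the first. Whether its signal comes from there was not tested. *Cdkn1a*, the cell cycle inhibitor p21, was at 6.81 and 6.58 in 13c and 15c and between 7.81 and 8.04 in the other untreated rats, against 7.76 to 9.04 with TMX. The difference of 0.77 became 0.27 without these 2 animals (unadjusted p = 0.172 in limma).

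*Fkbp5*, an immunophilin that feeds back on the glucocorticoid receptor, had 7.04, 7.30, 7.34, 7.25 and 7.19 in SCI/TMX- and between 7.25 and 8.63 (median 7.95) in SCI/TMX+, and the difference of 0.67 (limma adjusted p = 0.175) was 0.64 without animals 13c and 15c. Values chosen after they had been seen show the same for the transcriptional regulators *Tsc22d3* (GILZ; 0.32 and 0.30) and *Zbtb16* (0.40 and 0.44) and for the arrestin-like *Arrdc2* (0.55 and 0.57), each with all arrays and without the 2 animals. *Nr3c1*, itself in the list, was lower, at -0.22 (unadjusted p = 0.0238 in limma). Without animals 13c and 15c, 8 members of the list were higher and 1 lower (4.23% and 5.41% of all transcripts), with a median of 0.21. By rat, the mean of the list above Sham/TMX- was 1.36 in animal 11b, 1.17 in 10b, 1.06 in 9b and between 0.69 and 0.87 in the other treated rats. In untreated rats it was 0.75 to 0.82 in 16c, 17c and 18c, and 0.49 and 0.37 in 13c and 15c. In sham rats TMX gave the list a median of 0.05.

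For the metallothioneins the promoter sequences are shown, since *Mt1* was past the thresholds and the metal response elements of this family are known to lie close to the start. In the RefSeq windows of build GRCr8, 250 bases before to 50 after each start, *Mt1* holds 6 matches to the metal response core and its neighbour *Mt2A* 4. Searched on both strands, with overlaps counted, this core was TGCACNC or TGCGCNC, and matches are in capitals in the stretches before the start, which lie on the minus strand at chr19:10833004-10833171 (*Mt1*) and chr19:10838737-10838948 (*Mt2A*).
Mt1: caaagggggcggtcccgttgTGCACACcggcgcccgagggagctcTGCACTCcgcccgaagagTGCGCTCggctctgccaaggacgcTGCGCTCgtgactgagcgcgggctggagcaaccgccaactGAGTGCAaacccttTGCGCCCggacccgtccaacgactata
Mt2A: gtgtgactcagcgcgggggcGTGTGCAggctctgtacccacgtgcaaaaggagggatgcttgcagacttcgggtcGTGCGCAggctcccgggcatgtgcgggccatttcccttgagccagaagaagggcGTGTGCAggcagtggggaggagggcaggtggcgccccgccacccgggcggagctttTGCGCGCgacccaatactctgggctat
*Mt2A* lay between 11.98 and 12.77 in SCI/TMX- and between 12.49 and 12.75 in SCI/TMX+, with a difference of 0.23 (unadjusted p = 0.0587 in limma) and of -0.02 without animals 13c and 15c. Of the 27 named genes past the thresholds, 16 had a promoter in the table, of which 10 (62.5%) held the metal response core against 26.3% of 27457 genes with a promoter there. Among these 10, *Ccr2*, *Esrrb*, *Fbln2* and *Gins1* were lower with TMX and the others higher. None of the 16 held an estrogen response element (GGTCA and TGACC, 3 bases apart; 0.0255% of all), a glucocorticoid response element (GNACA and TGTNC, 3 bases apart; 0.459% of all) or an interferon element (GAAA and GAAA, 2 bases apart; 4.12% of all). In the glucocorticoid-induced list, 11 of 25 genes with a promoter (44%) held the metal response core and 1 (4%) the glucocorticoid response element. No test was run on these shares, and a match of letters is not a bound site.

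The receptors through which TMX is known to act did not pass the thresholds, and 1 orphan receptor of their wider family did. *Esr1* lay between 3.67 and 4.15 in SCI/TMX- and between 3.76 and 4.07 in SCI/TMX+ (log2 fold change 0.09, standard error 0.10), and *Esr2* between 4.19 and 4.80 and between 3.93 and 5.08 (0.10, standard error 0.17). All values of *Esr1* and *Esr2* lay below the array medians. The membrane receptor gene *Gper1* (0.13) and the orphan estrogen-related receptor genes *Esrra* (0.22) and *Esrrg* (0.09) had unadjusted p above 0.05 as well. *Esrrb*, a further orphan receptor of that family, had 3.90, 4.68, 3.94, 4.62 and 4.16 in SCI/TMX- and between 3.31 and 3.83 (median 3.52) in SCI/TMX+, without overlap. The difference was -0.70 (standard error 0.17, limma adjusted p = 0.153), between -0.79 and -0.60 with 1 array left out, and all its values lay below the array medians. Of 22 estrogen receptor targets, 4 were higher (*Car12*, carbonic anhydrase 12, by 0.58; *Cited2*, *Lcn2* and *Areg*) and 2 lower (*Oxtr*, the oxytocin receptor, at -0.35, and the chemokine gene *Cxcl12* at -0.30), with a median of 0.00, where over all transcripts 5.94% were higher and 4.51% lower.

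Genes of cholesterol synthesis that passed at an unadjusted p under 0.05 were all lower, by small amounts. Of 18 measured, 6 were lower and none higher (4.51% and 5.94% of all transcripts), and the median was -0.15. Without animals 13c and 15c, 6 were again lower and none higher (5.41% and 4.23% of all transcripts), with a median of -0.17. *Acat2*, a cytosolic thiolase for acetoacetyl-CoA, had 7.85, 7.99, 7.75, 7.76 and 7.61 in SCI/TMX- and between 7.34 and 7.63 (median 7.48) in SCI/TMX+, overlapping in animal 18c alone. The difference was -0.29 (standard error 0.08, limma adjusted p = 0.211). *Hsd17b7* (-0.37) and *Lss* (-0.29), which act on sterols, *Sqle* (-0.22), squalene epoxidase, and *Fdps* (-0.21) and *Idi1* (-0.24), of isoprenoid supply, were the other 5.

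*Ebp*, the TMX-binding isomerase, had 6.83, 7.29, 7.38, 7.42 and 7.29 in SCI/TMX- and between 6.87 and 7.20 (median 7.02) in SCI/TMX+. The log2 fold change was -0.22 (unadjusted p = 0.03 in limma) and -0.34 without animals 13c and 15c (unadjusted p = 0.00108 in limma), while in sham rats TMX gave 0.29. For *Ebp* the interaction had an unadjusted p of 0.000974 and an adjusted p of 0.432 in limma. The list's median in sham rats was 0.11, with 2 members higher and none lower. By rat the list was lowest in the treated animals 10b (-0.22), 11b (-0.20) and 8b (-0.19), relative to Sham/TMX-, and the other treated rats, between -0.03 and 0.07, lay in the range of the untreated ones, -0.04 to 0.12.

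Genes of dividing cells were also lower in part. *Gins1*, a subunit of the replicative helicase, had 3.69, 3.85, 3.74, 3.72 and 4.11 in SCI/TMX- and between 2.79 and 3.51 (median 3.12) in SCI/TMX+, all below the array medians and without overlap. The log2 fold change was -0.70 (standard error 0.14, limma adjusted p = 0.0673), at the edge of the minimum. In 5 of the fits that left out 1 of the 11 injured arrays it was no longer past it, -0.63 at the smallest. Over the lists of DNA replication (33 genes) and of cell cycle and mitosis (31 genes), 4 and 6 were lower and none higher at an unadjusted p under 0.05 (4.51% and 5.94% of all transcripts), with medians of -0.14 and -0.17. The topoisomerase gene *Top2a*, at -0.58, and the spindle gene *Tpx2*, at -0.44, were examples. By rat, the mean of the replication list above Sham/TMX- was 0.38, 0.30 and 0.21 in the treated animals 9b, 10b and 11b. In 7b, 8b and 12b, at 0.61, 0.57 and 0.55, it lay in the untreated range of 0.50 to 0.72. The cell cycle list was at 0.01, 0.06 and -0.06 in 9b, 10b and 11b. It lay between 0.23 and 0.30 in the other treated rats and between 0.18 and 0.38 in the untreated ones. Without animals 13c and 15c the replication list had 10 lower and none higher, with a median of -0.21, and the cell cycle list 7 lower and 1 higher, with a median of -0.13 (5.41% lower and 4.23% higher over all transcripts).

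*Lif*, a cytokine of the interleukin 6 family, had 6.01, 6.07, 6.23, 6.47 and 6.39 in SCI/TMX- and between 6.35 and 7.47 (median 7.13) in SCI/TMX+, with 1 treated rat, 8b, in the untreated range. The contrast gave 0.77 (standard error 0.17, limma adjusted p = 0.109), 0.68 without animal 11b and 0.64 without animals 13c and 15c. *Lbp*, which presents bacterial lipopolysaccharide to its receptor, was higher by 0.88 in injured rats and by 0.67 in sham rats, and had 0.57 in injured rats without 13c and 15c (unadjusted p = 0.0501 in limma). *Lcn2*, the siderophore-binding lipocalin 2, was higher by 0.78 in injured rats (0.33 without 13c and 15c, 0.50 without 15c) and lower with TMX in sham rats (unadjusted p = 0.00109 in limma). The interaction for *Lcn2* had an unadjusted p of 9.51e-05 and an adjusted p of 0.314 in limma, and *Lcn2* was the 1 gene of the 27 that passed the thresholds in sham rats too.

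Interferon genes past the thresholds were uneven among the treated rats. *Ifit1*, an inhibitor of viral translation, had 3.78, 3.70, 3.44, 4.04 and 4.21 in SCI/TMX-. In SCI/TMX+ 4 rats lay between 5.13 and 5.75 and the other 2, 8b and 11b, at 3.64 and 3.58. The log2 fold change was 0.94 (standard error 0.28, limma adjusted p = 0.212). *Cxcl11*, a chemokine for activated T cells, was highest in 11b with 7.75, where *Ifit1* was lowest, and its log2 fold change was 0.74 (limma adjusted p = 0.363). Of 33 interferon-stimulated genes 4 were higher and none lower (5.94% and 4.51% of all transcripts), and the median of 0.08 became -0.01 without animals 13c and 15c. *Cd55*, an inhibitor of complement on cell membranes, had 0.73, and 0.33 without them.

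*Foxc2*, a transcription factor of meningeal and vascular mesenchyme, had 4.46, 4.78, 5.13, 3.73 and 4.26 in SCI/TMX- and between 4.47 and 6.02 (median 5.10) in SCI/TMX+. *Aldh1a2*, the retinoic acid synthesizing enzyme of meninges, had 5.82, 5.76, 6.49, 5.64 and 5.91 against 5.78 to 7.68 (median 6.57). In both, animals 8b and 10b were the 2 highest, and leaving out either, or the untreated 17c, took the gene below the thresholds (log2 fold changes of 0.77 and 0.76 with all arrays, 0.58 and 0.56 at the lowest). Of 31 genes of meninges and fibroblasts, 5 were higher and none lower (5.94% and 4.51% of all transcripts), with a median of 0.17. The list as a whole was high in the same 2 rats, at 0.49 and 0.45 above Sham/TMX-, against -0.06 to 0.19 in the other treated rats and -0.20 to 0.25 in the untreated ones. How much meningeal tissue each sample held was not tested. *Dhrs9*, of retinol oxidation, was higher by 0.71 (limma adjusted p = 0.154).

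Of 35 genes of neurons and synapses, 10 were higher and 1 lower at an unadjusted p under 0.05 (5.94% and 4.51% of all transcripts), with a median of 0.13. *Glra1*, the glycine receptor α1 subunit, had 8.32, 8.48, 8.69, 8.50 and 8.73 in SCI/TMX- and between 8.78 and 9.10 (median 8.95) in SCI/TMX+, without overlap. The difference was 0.39 (limma adjusted p = 0.171), beside -0.82 for injury in untreated rats. The glycine transporter gene *Slc6a5* (0.37), complexin gene *Cplx1* (0.31) and potassium channel gene *Kcna2* (0.32) were of like size, and *Gap43*, of growing axons, was the lower one at -0.25. Without animals 13c and 15c, 4 members were higher and 1 lower (4.23% and 5.41% of all transcripts), and the median was 0.06. The injury contrast shares the SCI/TMX- arrays, so the opposite signs of the 2 contrasts are not independent.

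Other genes past the thresholds were *Pla2g3*, a secreted phospholipase A2 (0.85), *Mchr1*, the melanin-concentrating hormone receptor (0.82, and 0.31 without animals 13c and 15c), and *Aplnr*, the apelin receptor of endothelium (-0.73, with 9b, 10b and 11b at 4.64, 4.26 and 4.09 and the other 3 treated rats between 5.07 and 5.57). The proviral Env-like *LOC102552104* and *LOC102555039* hold identical values on all arrays (0.83), and *LOC102553221* had 0.87. For these, 4 treated rats lay above every untreated rat, and 8b and 10b did not. In sham rats TMX gave 0.70 for the first pair. Just inside the fold threshold lay *Gins1*, *Esrrb* and *Dhrs9*, and just outside *Steap4* (0.70), an iron and copper reductase, *Pnpla2* (0.68), adipose triglyceride lipase, and *Errfi1* (0.68), an inhibitor of the epidermal growth factor receptor.

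Among the smallest p-values with folds under the minimum, *Pnpla2* had 8.06 to 8.65 (median 8.56) in SCI/TMX- and between 8.67 and 9.55 (median 9.21) in SCI/TMX+, without overlap (limma adjusted p = 0.0622). Also higher were *Pam16*, of the mitochondrial import motor (0.47, and 0.37 in sham rats), *Sidt1* (0.57), *Fbxo44*, of a ubiquitin ligase (0.44), and *Clmp*, an adhesion molecule (0.48). Lower were *Tafazzin*, of cardiolipin remodelling (-0.38), *Fcrl2* (-0.64), *Cldn17*, a claudin (-0.42), *Mnda*, a nuclear protein of myeloid cells (-0.46), *Lef1*, a transcription factor of Wnt signalling (-0.41), and *Grxcr2*, known from hair cells (-0.56). Their limma adjusted p lay between 0.0649 for *Pam16* and 0.121 for *Grxcr2*.

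Several usual readouts of injury did not pass the thresholds. *Il6*, the cytokine interleukin 6, had 0.49 (standard error 0.28) and lay between 4.79 and 6.20 in SCI/TMX- and between 5.29 and 7.16 in SCI/TMX+. *Anxa1*, the glucocorticoid-regulated annexin A1, had 0.15 (standard error 0.14), *Vegfa*, the vascular growth factor, 0.02 (standard error 0.13), *Gfap* -0.15 (standard error 0.08), and the water channel gene *Aqp4* -0.02 (standard error 0.10). *Cyp1a1*, a xenobiotic-metabolizing cytochrome, lay between 2.08 and 2.82, below the array medians, and had 0.02 (standard error 0.15).

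**Figure D4:**
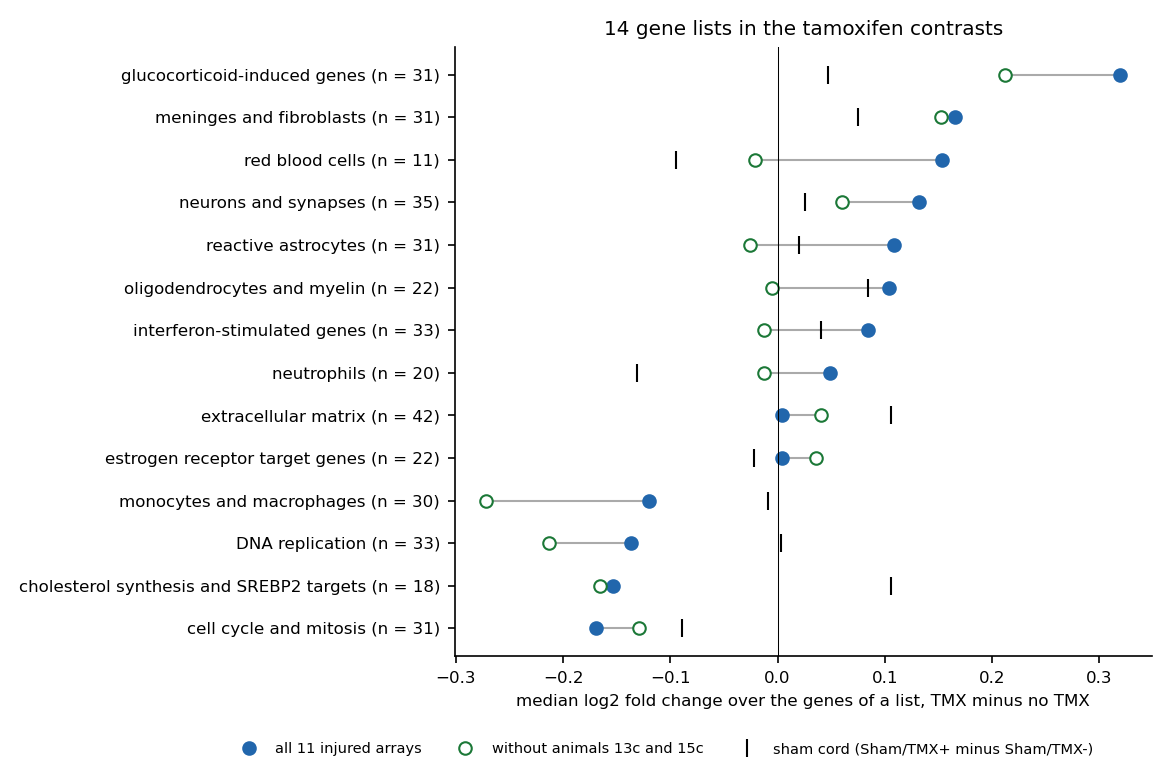
Median log2 fold change of 14 gene lists (x axis) in injured rats with all arrays (filled), in injured rats without animals 13c and 15c (open) and in sham rats (bars), with the number of genes measured. The glucocorticoid-induced list has the highest median, 0.32 (0.21 without the 2 animals), and the list of monocytes and macrophages moves from -0.12 to -0.27.

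Without animals 13c and 15c, 31 transcripts passed the thresholds, 8 higher and 23 lower with TMX, in place of 23 higher and 7 lower. All 30 kept their sign, 19 kept an unadjusted p under 0.05 and 10 remained past both thresholds: *RGD1309362* (both transcripts), *Ifit1*, *Foxc2*, *LOC102553221*, *Mmp12*, *Cd36*, *Ccr2*, *Gins1* and *Aplnr*. Among those that joined the lower side were the monocyte chemokine genes *Ccl9* (-0.89), *Ccl6* (-0.71) and *Ccl12* (-0.72), the granulocyte growth factor receptor gene *Csf3r* (-0.76), the macrophage folate receptor gene *Folr2* (-0.82), the replication gene *Mcm5* (-0.90), the kinetochore gene *Knl1* (-0.72), and the matricellular genes *Tnc* (-0.81) and *Postn* (-0.71). Under an adjusted p of 0.05 in limma stood 5 transcripts, of which *Ecm1* is also among the 5 with all arrays, and *Ccr2*, *Cd36* and *Clec4e* are not. In that fit animals 16c, 17c and 18c alone stand for SCI/TMX-, a choice made after the values were seen. With single arrays left out, *Pla2g3*, *Mchr1*, *Cdkn1a*, *Lcn2* and *Cxcl11* were among those lost without 11b or without 15c, and 6 transcripts stayed past the thresholds in every such fit: *RGD1309362* (both), *Cd36*, *Lbp*, *Hif3a* and *Ifit1*.

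**Figure D5:**
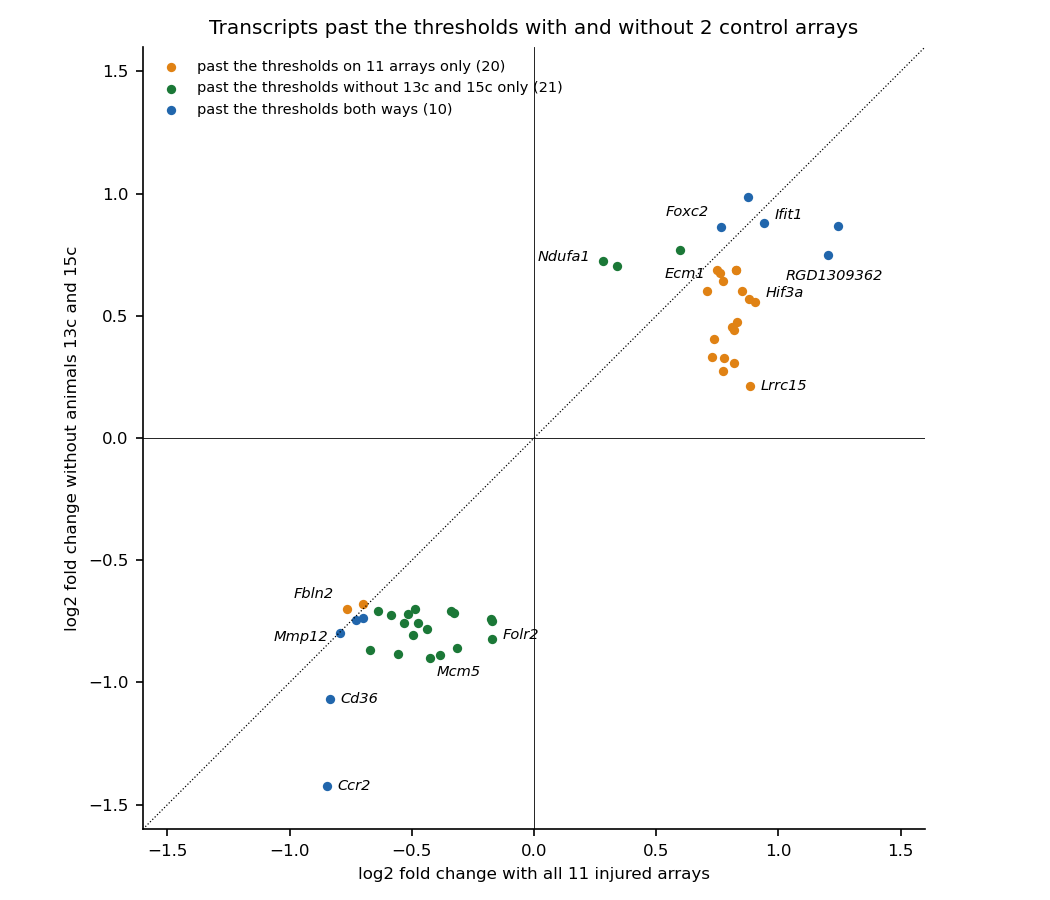
Log2 fold change between SCI/TMX+ and SCI/TMX- with all 11 injured arrays (x axis) and without animals 13c and 15c (y axis) for the transcripts past the thresholds in either fit. Of these, 20 pass with all arrays only, mostly on the right, 21 pass without the 2 animals only, mostly lower left, and 10 pass both ways.

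In no transcript did the effect of TMX in injured rats differ from that in sham rats at an adjusted p under 0.05 in limma. The lowest adjusted p of this interaction was 0.229, and 1585 transcripts had an unadjusted p under 0.05. Effects given above for both injured and sham rats are therefore values side by side.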

How the data were processed

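Spinal cord RNA of 22 rats was hybridized to Clariom S rat arrays, 1 per rat. The authors deposited log2 values made with RMA of oligo 1.56, which corrects background, applies quantile normalization and summarises the probes of each transcript; they were used as deposited. Labels gave the groups. The methods state that 24 rats were randomized, that 1 sample each of Sham/TMX- and SCI/TMX- was dropped for RNA quality and that an RNA integrity number of at least 7 was required. The platform annotation named 15049 transcripts, the tables of the study another 141, and 7998 are counted but unnamed. For the array design, a genome build is not given in the sources used here.

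Limma 3.58.1 in R 4.3.3 fitted the 4 group means over 22 arrays (lmFit and eBayes, 18 residual and 6.99 prior degrees of freedom), two-sided, with Benjamini-Hochberg adjustment over 23188 transcripts. The thresholds for TMX (log2 fold change beyond 0.7, p under 0.05 before adjustment) are those of the methods. The 55 gene lists take 1 transcript per gene, the one with the highest mean, and are described by counts and medians, with no test. Members and lists were chosen with earlier results of these data known. Genes named are those past the thresholds or at an adjusted p under 0.05, the 10 smallest p-values in each direction, in each list the 3 members at most of highest moderated t, a set of receptors and injury readouts, and the neighbours of the fold threshold; other members of lists were named after their values were seen. The fit was run on simulated data with equal spread in the 4 groups and no outlying arrays. That run does not cover the unequal spread and outlying arrays of these data. The number of arrays limits the precision. The p-values set a difference of group means against the spread between rats, which is pooled over the 4 groups and moderated by eBayes. For *Ccr2*, *RGD1309362* and *Ifit1* injured rats varied more than sham rats, and the pooled spread understates theirs. Alternatives were other samples in the fit, eBayes with trend and robust, a filter on low signal, other scalings, array weights, a replicate block, 1 transcript per gene, other thresholds and arrays left out.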

Additional observations from a re-analysis of the deposited data

Results flagged for a closer look

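Among the 176 sets of values examined (88 genes in each injured group), 8 held 1 rat far from the rest of its group by Dixon's test, where chance flags about 1 in 20. In SCI/TMX+, these were *Ecm1* in animal 10b (6.01 against a median of 5.54), *Esrrg* in 10b (5.58 against 5.96), *Nos2* in 11b (6.10 against 5.11) and *Slc6a5* in 9b (9.38 against 9.15). In SCI/TMX-, they were *Ecm1* in 15c (4.62 against 4.90), *Fcrl2* in 17c (6.72 against 6.97), *Cldn17* in 18c (3.40 against 3.72) and *Ebp* in 13c (6.83 against 7.29).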

How the results depend on the processing

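The count of 30 transcripts past the thresholds became 15 with array weights, 17 with the transcripts of low signal left out, 1 with thresholds of 0.05 (adjusted p) and 1 (log2 fold change), 2423 at an unadjusted p under 0.05 with no minimum fold change and 113 with thresholds of 0.01 (unadjusted p) and 0.5 (log2 fold change). With 1 array left out it lay between 16 (without animal 11b) and 63 (without 16c), with 19 without 15c and 46 without 12b. The count of 5 at an adjusted p under 0.05 became 2 with array weights, 25 with eBayes trend and robust, 30 with low signal left out, 0 with only the 11 injured arrays and 9 after quantile normalization once more, and lay between 1 (without 15c) and 18 (without 7b) with 1 array left out, with 17 without 16c, 3 without 9b and 2 without 13c. Replicate numbers only name rats here: deviations of same-numbered rats correlated between -0.21 and 0.23, and 1 of 5 correlated best with its own number. The replicate block gave 35 transcripts past the thresholds and 11 at an adjusted p under 0.05. The interaction count stayed at 0 under the alternatives run, with the exception of 1 transcript without Sham/TMX+ replicate 3, so it lay between 0 and 1.

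Of the 88 genes, those that changed sign had small differences: *Esr2* with array weights (-0.010) and without animals 13c and 15c (-0.049), *Vegfa* with array weights (-0.10), quantile normalization (-0.00074), the replicate block (-0.017) and without 13c and 15c (-0.20), and *Mt2A* without 13c and 15c (-0.022). With 1 array left out, ranges that crossed 0 were -0.0035 to 0.23 for *Esr2*, -0.048 to 0.28 for *Gper1*, -0.41 to 0.080 for *Il1b*, -0.17 to 0.032 for *Ccl2*, -0.048 to 0.10 for *Tnf*, -0.11 to 0.12 for *Vegfa*, -0.10 to 0.038 for *Aqp4* and -0.069 to 0.11 for *Cyp1a1*. The causes were not tested. Of the 30 transcripts, 6 stayed past the thresholds in all 22 fits with 1 array left out. Leaving out a sham array does not change the fold of this contrast, and in those fits all 30 stayed past the thresholds.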
